A study of Mus musculus with 6 samples.

Results

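The genes that build the CD8 coreceptor, the CD3 complex and the first steps of TCR signaling were followed through the CD8 T cells of B16-OVA tumors and their draining LN. There were 10 of them among the 32285 genes in the feature tables, namely *Cd8a*, *Cd8b1*, *Cd3d*, *Cd3e*, *Cd3g*, *Cd247*, *Lck*, *Zap70*, *Lat* and *Cd5*. They were chosen by name, and their UMIs (unique molecular identifiers, each marking 1 RNA molecule) were read in every barcode with 200 to 6000 genes and at most 3% mitochondrial UMIs, with no filter on *Cd8a* or *Cd8b1*.

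The tumors were grown from B16-OVA, mouse melanoma cells engineered to express ovalbumin as a model antigen. Control mice (CD8-Cre Rosa26Tomato, called C57Bl6 WT in the series' design text) and CD8-IFNγRKO mice (CD8-Cre IFNgR1flox/flox Rosa26Tomato), 6 to 10 weeks old per the methods, bore such tumors, and cells that stained for CD45, CD3 and CD8 and carried Tomato were sorted on day 12 by the labels. Both genotypes thus held the Cre and the reporter, and by the labels the floxed receptor allele set them apart. For each genotype, cells from 3 mice were combined into 1 tumor and 1 LN library (10x 5′ gene expression), and a TCR library was made of the tumor cells. A *Cd8a*-driven Cre and a gate on CD3 and CD8 protein both bear on the genes described here, since cells that had lost these proteins from their surface would not have been sorted. With 1 library per group there was no spread between replicates, so no test was run. Brackets give 95% intervals that cover counting error only, not the differences between mice.

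An αβ TCR has no signaling tail of its own. It is carried to the surface with the CD3 chains γ, δ and ε and with the zeta chain, whose tails hold the tyrosines phosphorylated after antigen contact. CD8 binds MHC class I and brings the kinase Lck to the complex, Zap70 then docks on the phosphorylated tails and phosphorylates the adaptor LAT, and CD5 is a surface inhibitor that thymic and peripheral TCR signals are known to set. In mature CD8 T cells all of these genes are expected to be transcribed, and TCR engagement is known to take the receptor off the cell surface.

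RefSeq promoter windows, each from 250 bases before to 50 bases after a transcript start on GRCm38.p6, were given for 9 of the 10 genes, 12 windows in all. *Cd8b1* was not matched. 4 windows are shown because they belong to 3 chains of the receptor complex and to *Lat*, the signaling gene whose level set tumor below LN in both genotypes by a ratio over 1.5. They lie at chr9:44981536-44981835 (plus strand, *Cd3d*), chr9:45009562-45009861 (minus strand, *Cd3e*), chr1:165788431-165788730 (plus strand, *Cd247*) and chr7:126369519-126369818 (minus strand, *Lat*). Each runs 5′ to 3′ on the strand of its gene, and capitals mark matches on either strand to TTCNNNGAA (a gamma-activated site), CAGGAAG (an ETS pattern) and TGTGGT (a RUNX pattern).
Cd3d: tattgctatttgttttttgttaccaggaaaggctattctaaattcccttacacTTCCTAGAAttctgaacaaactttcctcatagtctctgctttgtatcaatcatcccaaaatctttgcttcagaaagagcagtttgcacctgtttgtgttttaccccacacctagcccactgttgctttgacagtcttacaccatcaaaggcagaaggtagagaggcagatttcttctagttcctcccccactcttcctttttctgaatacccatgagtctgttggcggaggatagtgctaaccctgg
Cd3e: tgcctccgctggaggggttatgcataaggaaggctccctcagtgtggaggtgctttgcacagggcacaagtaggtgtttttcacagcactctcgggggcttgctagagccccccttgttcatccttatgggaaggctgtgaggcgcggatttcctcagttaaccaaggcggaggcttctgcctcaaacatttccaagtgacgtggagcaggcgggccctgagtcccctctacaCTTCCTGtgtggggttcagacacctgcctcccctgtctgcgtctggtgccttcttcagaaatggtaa
Cd247: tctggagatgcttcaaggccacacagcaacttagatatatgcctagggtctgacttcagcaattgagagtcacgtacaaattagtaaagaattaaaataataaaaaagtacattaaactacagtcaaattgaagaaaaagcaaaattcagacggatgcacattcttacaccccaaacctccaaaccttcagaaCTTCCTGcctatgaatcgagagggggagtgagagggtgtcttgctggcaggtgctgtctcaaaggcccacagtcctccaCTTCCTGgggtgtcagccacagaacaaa
Lat: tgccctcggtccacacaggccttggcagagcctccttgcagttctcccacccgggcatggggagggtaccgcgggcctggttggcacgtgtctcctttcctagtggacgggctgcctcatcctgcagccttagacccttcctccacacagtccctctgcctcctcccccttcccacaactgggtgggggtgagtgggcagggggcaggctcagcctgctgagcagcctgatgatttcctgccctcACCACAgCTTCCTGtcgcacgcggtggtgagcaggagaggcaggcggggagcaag
The gamma-activated pattern was found in 1 of the 12 windows, that of *Cd3d*, and in 8.30% of all 32851 windows of this length. The interferon-stimulated response element pattern (a pair of GAAA runs with 2 bases between) was found in none of the 12 and in 3.44% of all windows. The ETS pattern was found in 7 of the 12 windows, those of *Cd3e*, *Cd247*, *Lck*, *Zap70*, *Lat* and *Cd5*, and in 13.3% of all windows. The RUNX pattern was found in 3 of the 12, those of *Lck*, *Zap70* and *Lat*, and in 16.8% of all. No matches overlapped each other. *Cd3d*, *Cd3e* and *Cd3g* are neighbours on chromosome 9, and the starts of *Cd3d* and *Cd3g*, which point away from each other, lie 1355 bases apart. These are matches of letters in short windows, and no binding was measured.

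The 4 libraries kept 11075 to 12861 barcodes each, with 44235611 to 101871087 UMIs and medians of 3531 to 6446 UMIs per barcode. The control tumor library was the most uneven, with 33.1% of its barcodes under 1500 UMIs against 9.04% in the CD8-IFNγRKO tumor library, 18.9% in control LN and 2.26% in CD8-IFNγRKO LN. Between 506 and 642 barcode sequences of a library also stood in another library. Melanoma genes marked 139 barcodes of the control tumor library, 2 of the CD8-IFNγRKO tumor library and 0 in LN, and barcodes marked for B, myeloid or melanoma genes together were 23 to 170 per library. The targeted gene *Ifngr1* (ENSMUSG00000020009) stood at 184 CPM (UMIs of a gene after scaling the UMIs of all genes in a library to 1000000) in control LN, 134 CPM in CD8-IFNγRKO LN, 740 CPM in control tumors and 253 CPM in CD8-IFNγRKO tumors, lower in the CD8-IFNγRKO library of each tissue. Transcripts of a deleted allele can still give 5′ reads, so these levels do not tell how many cells kept the receptor.

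All 10 genes were well measured, with between 6502 and 159544 UMIs per gene and library. Since each UMI is 1 molecule caught at its 5′ end, levels of different genes were set side by side in CPM without a correction for length. *Cd8b1* was the highest of the 10 in both LN libraries and *Cd3g* in both tumor libraries, and *Cd5* was the lowest in all 4. In both LN libraries *Lat* and *Cd8a* held neighbouring places with overlapping intervals, as at 684 (677 to 692) and 683 (676 to 691) CPM in control LN. No interval overlapped between neighbours in either tumor library. *Cd3g* ranked 80th among all genes in control tumors, *Cd5* 832nd.

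The coreceptor chains went separate ways between the tissues. *Cd8a* (ENSMUSG00000053977), which encodes the α chain that binds Lck, was at 683 CPM in control LN, 671 CPM in CD8-IFNγRKO LN, 1437 CPM in control tumors and 1009 CPM in CD8-IFNγRKO tumors. Both tumor libraries were above both LN libraries, and the control tumor library was the highest. *Cd8b1* (ENSMUSG00000053044), which encodes the β chain of the αβ heterodimer, was at 1139 CPM in control LN, 1250 CPM in CD8-IFNγRKO LN, 1139 CPM in control tumors and 916 CPM in CD8-IFNγRKO tumors. Its level was the same in tumor and LN of control mice, and its lowest library was the CD8-IFNγRKO tumor. *Cd8b1* therefore made up 62.5% (62.2 to 62.8) of the summed UMIs of both chains in control LN and 65.1% (64.8 to 65.4) in CD8-IFNγRKO LN, but 44.2% (44.0 to 44.5) in control tumors and 47.6% (47.4 to 47.8) in CD8-IFNγRKO tumors. This share does not depend on the library size. The α chain had more UMIs than the β chain in both tumor libraries and fewer in both LN libraries. Whether transcripts of both genes are caught equally well was not tested.

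Among the CD3 chains, *Cd3g* (ENSMUSG00000002033, CD3γ) differed most between the tissues, at 918 CPM in control LN, 977 CPM in CD8-IFNγRKO LN, 2085 CPM in control tumors and 1566 CPM in CD8-IFNγRKO tumors. *Cd3d* (ENSMUSG00000032094, CD3δ) stood at 829, 839, 1394 and 1076 CPM in the same order of libraries. *Cd3e* (ENSMUSG00000032093, CD3ε) stood at 1061, 1120, 1685 and 1260 CPM. All 3 chains thus had the same order, with the LN libraries lowest, CD8-IFNγRKO tumors between and control tumors highest. *Cd247* (ENSMUSG00000005763), which encodes the zeta chain, behaved otherwise, at 234 CPM in control LN, 241 CPM in CD8-IFNγRKO LN, 254 CPM in control tumors and 161 CPM in CD8-IFNγRKO tumors. The CD8-IFNγRKO tumor library stood apart from the other 3.

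Set against the sum of the 4 chains, *Cd3g* made up 30.2% of UMIs in control LN and 30.8% in CD8-IFNγRKO LN, and 38.5% in each tumor library. *Cd247* made up 7.68% (7.54 to 7.82) in control LN, 7.59% (7.45 to 7.73) in CD8-IFNγRKO LN, 4.69% (4.63 to 4.76) in control tumors and 3.97% (3.91 to 4.03) in CD8-IFNγRKO tumors. The zeta chain had the fewest UMIs of the 4 in every library. *Cd3d* kept between 25.7% and 27.3% in all 4 libraries and *Cd3e* between 31.0% and 35.3%.

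**Figure D1:**
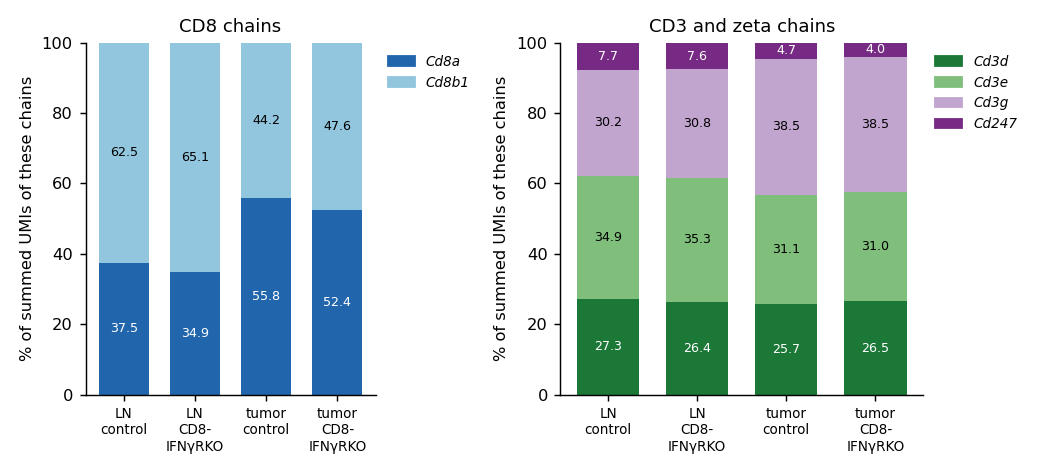
Share of the summed UMIs of *Cd8a* and *Cd8b1* (left) and of *Cd3d*, *Cd3e*, *Cd3g* and *Cd247* (right) in percent, with 1 bar for each of the 4 libraries and the share printed in each segment. *Cd8b1* is 62.5% and 65.1% in LN and 44.2% and 47.6% in tumors, and *Cd247* is smallest in CD8-IFNγRKO tumors, at 3.97%.

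Of the kinases and the adaptor, *Lck* and *Lat* did not follow *Cd3d*, *Cd3e* and *Cd3g*, while *Zap70* had their order of libraries. *Lck* (ENSMUSG00000000409), the kinase held by CD8, was at 726 CPM in control LN, 778 CPM in CD8-IFNγRKO LN, 617 CPM in control tumors and 547 CPM in CD8-IFNγRKO tumors, lower in both tumor libraries. *Zap70* (ENSMUSG00000026117) was at 160 CPM in control LN, 161 CPM in CD8-IFNγRKO LN, 290 CPM in control tumors and 271 CPM in CD8-IFNγRKO tumors, higher in both tumor libraries. *Lat* (ENSMUSG00000030742), the adaptor that Zap70 phosphorylates, was at 684 and 685 CPM in control and CD8-IFNγRKO LN and at 416 and 421 CPM in control and CD8-IFNγRKO tumors. Its level differed by tissue, and the intervals of the genotypes overlapped within each tissue. The inhibitor *Cd5* (ENSMUSG00000024669) was at 144 CPM in control LN, 147 CPM in CD8-IFNγRKO LN, 178 CPM in control tumors and 137 CPM in CD8-IFNγRKO tumors.

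**Figure D2:**
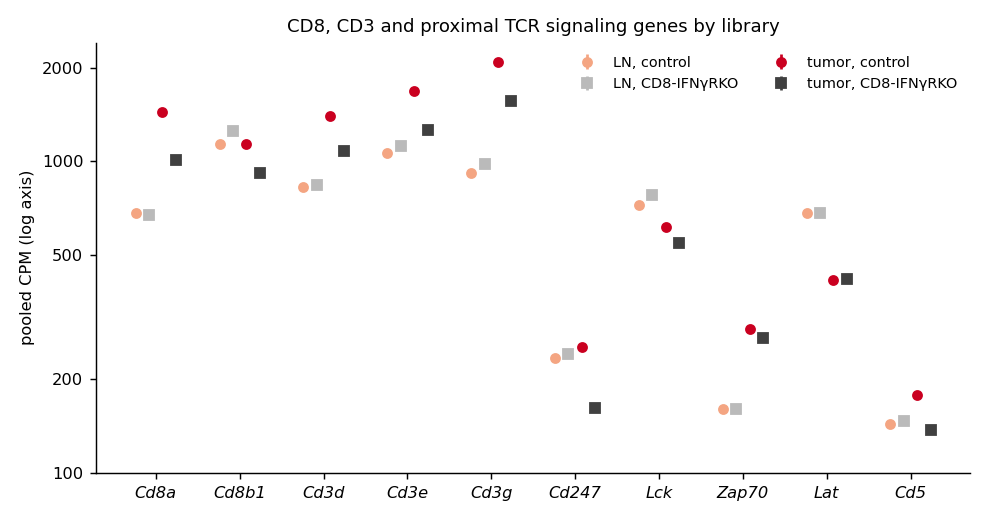
Pooled CPM (log axis) of the 10 genes in the 4 libraries, 1 point per library, with 95% counting intervals that are smaller than the points. *Cd8a*, *Cd3d*, *Cd3e* and *Cd3g* are highest in control tumors, and *Lat* is at 684 and 685 CPM in LN and 416 and 421 CPM in tumors.

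The first comparison set the CD8-IFNγRKO tumor library against the control tumor library. The CD8-IFNγRKO library was lower than the control library for 9 of the 10 genes, with a median log2 ratio of -0.37 where the median of 3115 genes that reached 50 CPM in 1 or both libraries was 0.02 and the middle 50% of them lay from -0.16 to 0.22. The largest gaps were in *Cd247*, at -0.66 (-0.69 to -0.62), and *Cd8a*, at -0.51 (-0.52 to -0.50). *Cd3e* stood at -0.42, *Cd3g* at -0.41, *Cd3d* and *Cd5* at -0.37 and *Cd8b1* at -0.31. *Lck*, at -0.17, and *Zap70*, at -0.10, were nearer to 0. *Lat* was at 0.02 (-0.01 to 0.04), and at -0.01 when all ratios were divided by the median ratio. By a ratio of 1.5, *Cd247* was lower and no gene of the 10 was higher, where 4.3% of all genes were lower and 4.33% higher by that ratio. *Cd247* lay just past the limit and *Cd8a* was the nearest short of it, and with the mean of CPM per barcode *Cd247* was at -0.49, so that no gene passed.

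In LN the same comparison gave ratios from -0.03 for *Cd8a* to 0.13 for *Cd8b1*, with a median of 0.04 where that of 2758 genes was 0.03. None of the 10 passed a ratio of 1.5 in either direction, and 0.109% of all genes were higher and 0.218% lower by it. The middle 50% of all genes lay from -0.03 to 0.08, and *Cd8b1*, at 0.13 (0.12 to 0.15), *Lck*, at 0.10 (0.08 to 0.12), and *Cd3g*, at 0.09 (0.07 to 0.11), stood above that range. *Cd3d* at 0.02, *Zap70* and *Lat* at 0.00 and *Cd5* at 0.03 turned to values just under 0 under at least 1 other setting.

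**Figure D3:**
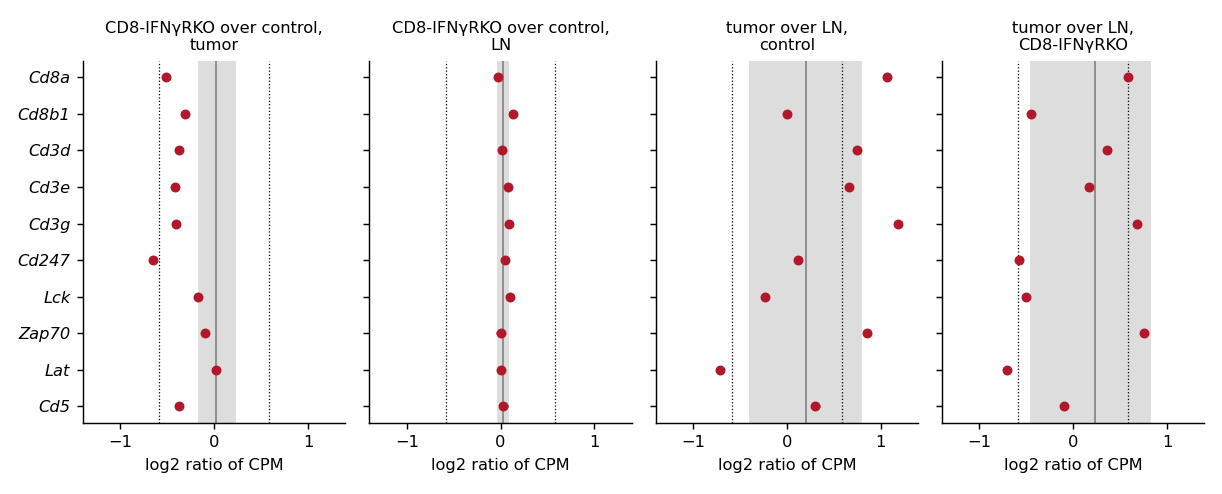
Log2 ratios of pooled CPM for the 10 genes (red points, with counting intervals mostly hidden by the points) in the 4 comparisons. Grey bands hold the middle 50% of all genes that reached 50 CPM in 1 or both libraries, grey lines their median, and dotted lines a ratio of 1.5. In tumors 9 of the 10 genes lie below 0 and *Cd247* lies past the dotted line at -0.66.

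The tissues were compared next, within each genotype. In control mice 5 genes were higher in tumors by a ratio of 1.5, at log2 ratios of 1.18 for *Cd3g*, 1.07 for *Cd8a*, 0.86 for *Zap70*, 0.75 for *Cd3d* and 0.67 for *Cd3e*, where 32% of 3364 genes were higher. *Lat* was lower, at -0.72 (-0.74 to -0.70), where 19.5% of genes were lower. *Lck* at -0.24, *Cd247* at 0.12 and *Cd5* at 0.30 lay between. In CD8-IFNγRKO mice, 3 genes were higher, *Zap70* at 0.75, *Cd3g* at 0.68 and *Cd8a* at 0.59, where 33.8% of 3466 genes were. *Lat* was lower, at -0.70 (-0.72 to -0.68), where 20.7% of genes were, and *Cd247* lay just inside the limit at -0.58. Read against these shares of all genes, 5 and 3 of 10 higher and 1 of 10 lower do not set the 10 genes apart.

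The tissue ratios depended on the scaling. When TCR segment, ribosomal protein, mitochondrial and heat shock genes left the library size, the median of all genes moved from 0.20 to -0.07 in control mice and from 0.23 to -0.02 in CD8-IFNγRKO mice, and every ratio moved by one and the same amount per genotype. The control ratio of *Cd247* then turned to -0.15 and that of *Cd8b1* moved from 0.00 to -0.27, and in CD8-IFNγRKO mice *Cd3e* turned from 0.17 to -0.08. *Cd5*, at -0.10 in CD8-IFNγRKO mice, turned to 0.03 with the mean of CPM per barcode. *Cd3g*, *Cd8a*, *Cd3d* and *Zap70* stayed above 0 and *Lat* and *Lck* below 0 in both genotypes under each setting tried. The 2 tissue comparisons share their libraries with the 2 genotype comparisons, so that the 4 sets of ratios are not independent of each other.

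The rest of the TCR pathway was read from a list of 47 genes, counting those with at least 20 CPM in either library. In tumors, 42 genes were counted for CD8-IFNγRKO against control, with a median log2 ratio of -0.18, where that of all genes that reached 50 CPM was 0.02. None was higher by a ratio of 1.5, where 4.33% of all genes were. Only 1 was lower, where 4.3% of all genes were. That gene was *Lime1*, which encodes an Lck-binding adaptor, at 80.6 against 124 CPM, a log2 ratio of -0.62 (-0.66 to -0.58). The highest were *Csk*, the kinase that restrains Lck, at 175 against 141 CPM (0.32), and *Trbc2*, a TCR β constant gene, at 0.30. *Trbc1* and *Trbc2* are near-identical copies between which reads can be split, so that values for either are uncertain. In LN, 43 genes were counted and none passed the ratio, where 0.109% of all genes were higher and 0.218% lower. The median of the list was 0.07 and that of all genes 0.03. The extremes there were *Sla2* at 0.28, *Trbc1* at 0.22, *Sit1* at -0.13 and *Lime1* at -0.02.

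Between tissues the list ranged much more widely. In control mice 11 of 44 genes were higher in tumors and 13 lower, where 32% and 19.5% of all genes that reached 50 CPM were. In CD8-IFNγRKO mice 8 of 45 were higher and 18 lower, where 33.8% and 20.7% of all genes were. The medians of the list were -0.27 and -0.52, and those of all genes 0.20 and 0.23. *Ubash3b*, a phosphatase that dampens TCR signaling, went from 13.2 CPM in LN to 137 CPM in tumors of control mice and from 14.9 to 99.1 CPM in CD8-IFNγRKO mice, log2 ratios of 3.38 and 2.74. *Sh2d2a*, an adaptor that binds Lck, went from 120 to 1041 CPM and from 124 to 783 CPM, log2 ratios of 3.11 and 2.66. *Tespa1*, a regulator of thymocyte TCR signaling, was at 89.0 and 4.77 CPM in LN and tumors of control mice and at 102 and 7.73 CPM in CD8-IFNγRKO mice, log2 ratios of -4.22 and -3.72. *Dgka*, which removes diacylglycerol, was the next lowest of the genes counted in control mice at -2.38, and *Trat1*, an adaptor that travels with the TCR, was lowest in CD8-IFNγRKO mice at -4.42. The shift of scaling given above applies to these ratios too.

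In tumors the genotype ratio was then read within groups of barcodes, settings that were added after the pooled ratios had been seen. Depth was looked at first, because the tumor libraries differ in it. Within 6 bins of UMIs per barcode, from under 1000 to 16000 or more, the CD8-IFNγRKO library was lower in all 6 for *Cd8a* (from -0.53 to -0.42), *Cd3d* (from -0.43 to -0.29), *Cd3e* (from -0.42 to -0.30), *Cd3g* (from -0.46 to -0.31), *Cd8b1* (from -0.36 to -0.12) and *Cd247*. In the pool *Cd8a* stood at -0.51, *Cd3e* at -0.42, *Cd3g* at -0.41 and *Cd3d* at -0.37. Each of these gaps was thus smaller in several bins than in the pool. *Cd247* was less even, from -0.20 in barcodes of 2000 to 4000 UMIs to -0.75 in the deepest bin. *Lck* was below 0 in 4 bins and *Lat* in 1.

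TCR contigs split the tumor barcodes by clone. A clone was the set of barcodes with the same V and J genes and CDR3 nucleotides in both chains. Control tumors had 378 barcodes in clones of 1 cell, 240 in clones of 2 to 9 and 4350 in 35 clones of 10 or more cells. CD8-IFNγRKO tumors had 726, 176 and 5957, the last in 34 clones. No contig was found for 46.7% of control and 33.1% of CD8-IFNγRKO barcodes, whose median depths were 1075 and 2196 UMIs. Of these, 2068 control and 3088 CD8-IFNγRKO barcodes had at least 1500 UMIs, with medians of 11512.5 and 3080 UMIs. They held 38096 of the 42034 *Cd8a* UMIs of the class in control and 28071 of 28945 in CD8-IFNγRKO tumors. The *Cd8a* levels of this class thus rest mostly on these barcodes, which were deeper in control tumors.

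In clones of 1 cell the genotypes were close for every gene of the 10. *Cd8a* stood at 619 CPM in control and 613 CPM in CD8-IFNγRKO tumors, a log2 ratio of -0.02 (-0.13 to 0.10), and *Cd3g* at 1002 and 982 CPM, -0.03 (-0.12 to 0.06). In clones of 10 or more cells *Cd8a* stood at 1501 and 1041 CPM, a log2 ratio of -0.53 (-0.54 to -0.51), and *Cd3g* at 2220 and 1620 CPM, -0.45 (-0.47 to -0.44). *Cd8a* was also at -0.50 in clones of 2 to 9 cells, -0.50 in barcodes with contigs of 1 chain only and -0.52 in barcodes with no contig, and *Cd3g* at -0.44, -0.39 and -0.40. Of these classes, clones of 1 cell alone had ratios of *Cd8a* and *Cd3g* whose intervals held 0, and there both genotypes were near the LN levels of *Cd8a* and *Cd3g*. Other genes were not near theirs. *Cd8b1* stood at 632 and 660 CPM in clones of 1 cell of control and CD8-IFNγRKO tumors, against 1139 and 1250 CPM in LN. *Lat* stood at 450 and 448 CPM there, against 684 and 685 CPM in LN. Over the 10 genes the median ratio was -0.03 in clones of 1 cell, -0.28 in clones of 2 to 9, -0.43 in clones of 10 or more, -0.31 in barcodes with 1 chain only and -0.34 in barcodes with no contig. In clones of 1 cell all 10 intervals held 0, so that a gap within the interval of a gene could not be seen there. The widest interval was that of *Cd5*, from -0.40 to 0.10, and that of *Cd3d* was from -0.13 to 0.05. The difference between clone classes was not tested. No genotype ratio over all genes was set beside these within a clone class, so they do not show whether the 10 genes differ from other genes there.

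Large clones differed from clones of 1 cell within each genotype as well. In control tumors the log2 ratio of clones of 10 or more over clones of 1 cell was 1.28 for *Cd8a*, 1.15 for *Cd3g*, 0.91 for *Cd8b1*, 0.81 for *Cd3e* and 0.62 for *Zap70*. In CD8-IFNγRKO tumors it was 0.76, 0.72, 0.51, 0.42 and 0.58. *Lat* was slightly lower in large clones of both genotypes, at -0.14 and -0.11. For *Cd247* the ratio was 0.38 (0.22 to 0.55) in control and -0.23 (-0.35 to -0.11) in CD8-IFNγRKO tumors, and for *Lck* 0.04 (-0.05 to 0.14) and -0.26 (-0.32 to -0.19). Besides *Lat*, the zeta chain and *Lck* were thus the genes that were lower in large than in single-cell clones of CD8-IFNγRKO tumors. No value over all genes stands beside these ratios, so they do not set the 10 genes apart. Median depths in control and CD8-IFNγRKO tumors were 6048.5 and 9828 UMIs in clones of 10 or more, against 3443 and 3585.5 in clones of 1 cell. Barcodes with neither *Cd8a* nor *Cd8b1* were 0.391% and 0.269% of clones of 10 or more, against 13.5% and 8.82% of clones of 1 cell. The part of either in these ratios was not tested.

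A UMI of *Tcf7*, which encodes the factor TCF1 that marks stem-like and naive T cells, split the tumor cells in a like way. In cells thinned at random to 1500 UMIs, *Tcf7* was found in 390 of 7408 control and 916 of 10652 CD8-IFNγRKO tumor cells, or 5.26% and 8.60%. The 2 splits overlapped, since *Tcf7* was found in 45.1% of control and 56.5% of CD8-IFNγRKO cells in clones of 1 cell, and in 1.01% and 1.81% of cells in clones of 10 or more. Cells with *Tcf7* had *Cd8a* at 684 CPM in control and 677 CPM in CD8-IFNγRKO tumors, a log2 ratio between genotypes of -0.02 (-0.12 to 0.09). Cells without it had 1454 and 1022 CPM, a ratio of -0.51 (-0.52 to -0.50). *Lck* was the gene with the highest ratio in cells with *Tcf7*, at 0.13 (0.02 to 0.24), and *Cd5* the one with the lowest, at -0.25 (-0.48 to -0.02). The median depths were 3268 and 3204 UMIs in cells with *Tcf7* and 6440.5 and 8327.5 UMIs in cells without. Here too no genotype ratio over all genes was set beside those of the 10.

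**Figure D4:**
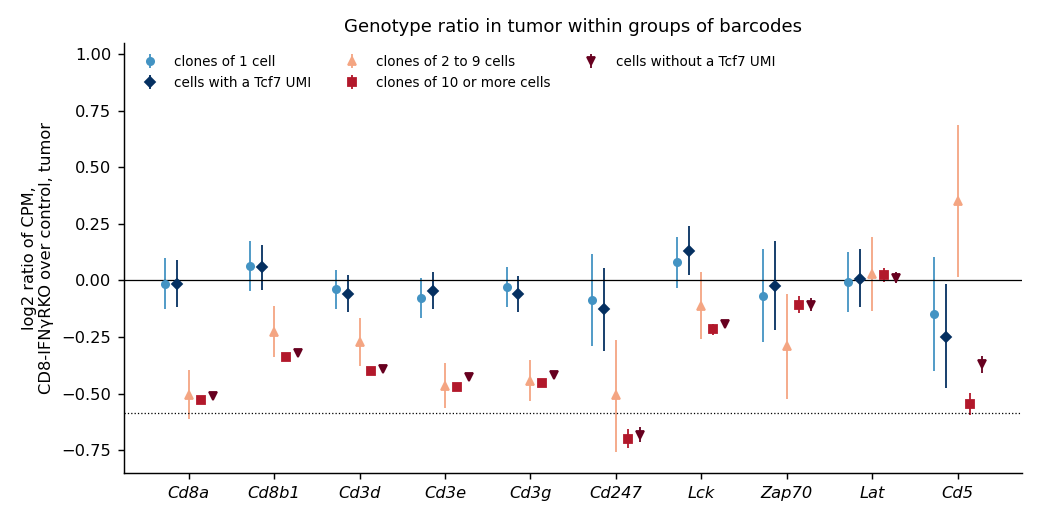
Log2 ratio of pooled CPM, CD8-IFNγRKO over control, in tumors for the 10 genes within clones of 1 cell, 2 to 9 cells and 10 or more cells and within cells with and without a *Tcf7* UMI, with bars for 95% counting intervals and a dotted line at a ratio of 1.5. For *Cd8a* and the CD3 chains the blue points (1 cell, with *Tcf7*) lie near 0 and the red points (10 or more cells, without *Tcf7*) between -0.39 and -0.53.

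In LN, *Tcf7* made little difference to these genes. *Cd8a* stood at 698 CPM in control cells with *Tcf7* and 661 CPM in those without, and at 688 and 651 CPM in CD8-IFNγRKO cells. A UMI of *Ccl5*, a chemokine of memory and effector CD8 T cells, went with lower coreceptor and zeta levels in LN. *Cd247* was at 165 CPM in 633 control LN cells with *Ccl5* and 239 CPM in those without, and at 157 and 248 CPM in CD8-IFNγRKO LN. *Cd8a* was at 528 against 695 CPM in control LN and 461 against 687 CPM in CD8-IFNγRKO LN. In tumors, where 92.5% of control and 74.1% of CD8-IFNγRKO cells had *Ccl5*, the order was the opposite, with *Cd8a* at 1462 against 1042 CPM and 1074 against 871 CPM. *Havcr2*, interferon-stimulated genes (*Ifit1*, *Ifit3* or *Rsad2*) and *Nr4a1*, an immediate response gene of TCR engagement, gave tumor ratios of *Cd8a* between cells with and without them from 0.02 to 0.20. The genotype ratio of *Cd8a* lay from -0.54 to -0.38 on either side of these splits and of the split by the cycling genes *Mki67* or *Top2a*. It was -0.45 in cells with *Ccl5* and -0.26 (-0.30 to -0.21) in cells without.

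Clones of 50 or more cells gave a view of the spread within each pool. There were 11 in control tumors with 3762 cells, the largest of 1188, and 22 in CD8-IFNγRKO tumors with 5742 cells, the largest of 1619. Clones are not replicates of a genotype, since several share a mouse and no file used here ties a clone to a mouse. *Cd3e* ranged from 1616 to 2218 CPM over the control clones, with a median of 1821, and from 1122 to 1694 CPM over the CD8-IFNγRKO clones, with a median of 1287. Of the 22 CD8-IFNγRKO clones, 21 lay below the lowest control clone. *Cd3d* likewise ranged from 1297 to 1619 CPM with a median of 1384 and from 961.6 to 1343 CPM with a median of 1126, again with 21 of 22 below the lowest control clone. For *Cd3g* 17 and for *Cd8a* 16 of the 22 did.

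Not every gap held clone by clone. *Cd247*, with the largest pooled ratio, ranged from 122 to 374 CPM in control clones, with a median of 193, and from 118 to 453 CPM in CD8-IFNγRKO clones, with a median of 162. The log2 ratio of the medians was -0.25, against -0.66 in the pool, and 3 of 22 clones lay below the lowest control clone. The 3 largest control clones had 245, 303 and 274 CPM, so that the pooled control level of *Cd247* was weighted by clones above the control median. The median of the CD8-IFNγRKO clones lay below the lowest control clone for 4 of the 10 genes, *Cd8a*, *Cd3d*, *Cd3e* and *Cd3g*, where it did so for 12.3% of the 3115 genes, and above the highest control clone for none of the 10, where it did so for 18.5%.

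*Cd5* was the gene most unlike from clone to clone. It ranged from 37.5 to 439 CPM over the control clones and from 30.4 to 525 CPM over the CD8-IFNγRKO clones, with medians of 150 and 118 CPM. The 2 largest control clones stood at 65.9 and 392 CPM, and the ranges of the genotypes overlapped almost fully. Clones of either genotype thus differed more from each other in *Cd5* than the libraries did. Among CD8-IFNγRKO clones, 3 chosen after their values were seen, of 160, 93 and 80 cells, had *Cd8b1* at 492, 490 and 504 CPM and *Cd8a* at 681, 655 and 695 CPM, the lowest levels of both chains, with *Cd5* at 403, 341 and 274 CPM. *Lat*, *Zap70* and *Lck* overlapped widely, with medians of 420 and 440 CPM, 295 and 282 CPM, and 653 and 555 CPM in control and CD8-IFNγRKO clones. Median depths ranged from 4067.5 to 6779.5 UMIs per barcode over the control clones and from 2439 to 14393 over the CD8-IFNγRKO clones, and the part of depth in the clone levels was not tested.

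**Figure D5:**
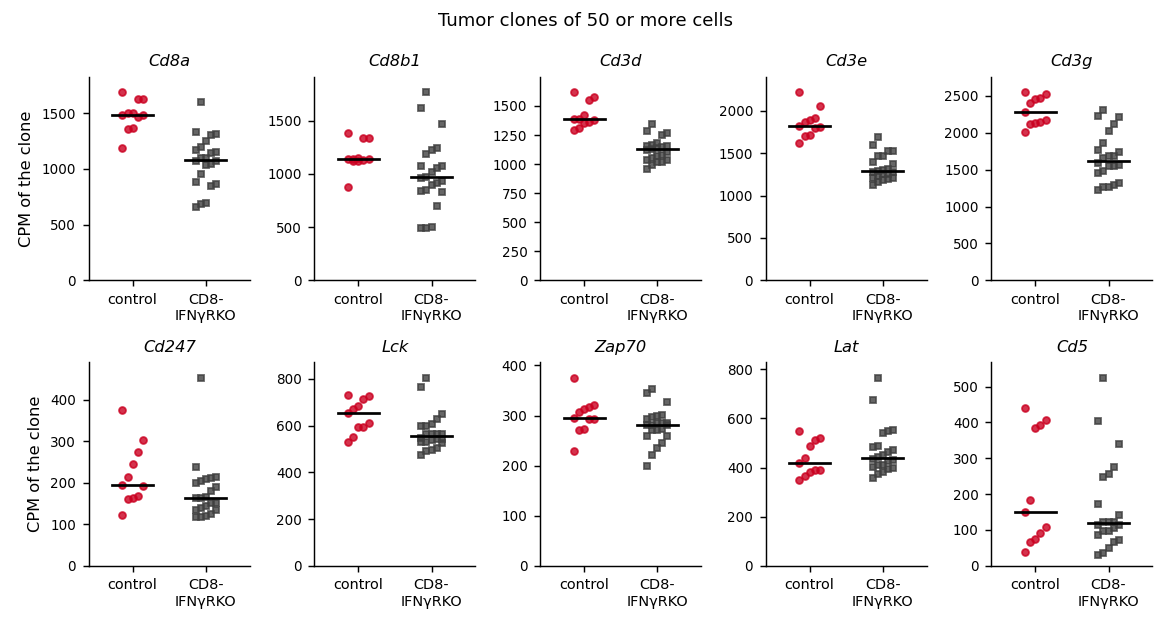
CPM of each of the 10 genes in every tumor clone of 50 or more cells, 11 control (red circles) and 22 CD8-IFNγRKO (grey squares), 1 point per clone and a bar at the median, with axes from 0. *Cd3d* and *Cd3e* separate the genotypes for 21 of 22 clones, while *Cd5* ranges from 37.5 to 439 CPM in control and from 30.4 to 525 CPM in CD8-IFNγRKO clones.

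Since no filter was set on *Cd8a* or *Cd8b1*, barcodes with neither could be counted. At 1500 UMIs per cell they were 7.94% (7.43 to 8.48) of control LN, 7.36% (6.88 to 7.87) of CD8-IFNγRKO LN, 5.55% (5.04 to 6.09) of control tumor and 9.08% (8.54 to 9.64) of CD8-IFNγRKO tumor cells. Without thinning they were 5.44%, 1.23%, 5.16% and 3.01%, so that the order of the libraries was not the same with and without thinning. In control tumors 14.2% of barcodes under 1000 UMIs lacked both, 5% of those from 2000 to 4000 UMIs and 0 of 873 with 16000 or more, an exact upper bound of 0.422%. Of barcodes with at least 4000 UMIs, 9 in control LN, 9 in CD8-IFNγRKO LN, 15 in control tumors and 20 in CD8-IFNγRKO tumors had neither. These deep barcodes held the myeloid list at 9198, 4388, 12504 and 3311 CPM in the same order of libraries, against 90.5, 105, 409 and 296 CPM in the other deep barcodes. Their summed CD3 and zeta level was 2437, 1933, 2037 and 2427 CPM, against 2916, 2998, 5467 and 4072 CPM in the others. At least 2 myeloid-list genes were found in 3 of 9, 2 of 9, 5 of 15 and 5 of 20 of them, so few barcodes can carry the pooled level. These were 33.3%, 22.2%, 33.3% and 25%, against 1.82%, 2.07%, 27.3% and 26.0% of the other deep barcodes. Other lists went either way, as with the NK list at 1238 against 34.6 CPM in control tumors and 34.8 against 53.3 CPM in CD8-IFNγRKO LN. At least 2 NK-list genes were found in 0 of the 15 control tumor and 0 of the 9 CD8-IFNγRKO LN barcodes, so these levels do not mark NK cells. The median depth of all barcodes with neither was 701.5 UMIs in control LN, 2261 in CD8-IFNγRKO LN, 829 in control tumors and 1581 in CD8-IFNγRKO tumors, below the median of its library in each case. Of them, 21 of 700, 26 of 138, 69 of 572 and 5 of 353 were marked for B, myeloid or melanoma genes. Of tumor barcodes in clones of 1 cell, 13.5% of control and 8.82% of CD8-IFNγRKO had neither, against 0.391% and 0.269% in clones of 10 or more, whose median depths were 6048.5 and 9828 UMIs against 3443 and 3585.5.

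Shares of cells with a UMI were read for single genes as well, and their order of libraries differed by gene. *Cd8a* was found in 60.9% of control LN, 61.6% of CD8-IFNγRKO LN, 82.8% of control tumor and 74.6% of CD8-IFNγRKO tumor cells thinned to 1500 UMIs, and *Cd3g* in 74.1%, 75.7%, 92.7% and 87.1%. *Zap70* was found in 21.4%, 21.5%, 33.9% and 33.2%. *Cd8b1* was found in 80.8%, 83.3%, 80.2% and 72.0%, lowest in CD8-IFNγRKO tumors. Without thinning, the shares for *Cd8a* were 78.6%, 86.8%, 87.5% and 91.6%, with CD8-IFNγRKO tumors highest. As background, 18 control LN barcodes marked for B cell genes, with a median of 2441.5 UMIs, had *Cd8a* in 5.56%, and 26 in CD8-IFNγRKO LN, with a median of 2410 UMIs, in 7.69%. The medians of all barcodes there were 3531 and 3638 UMIs, and the shares of *Cd8a* were above this background. Myeloid-marked barcodes, from 14 to 30 per library, had *Cd8a* in 7.14% of control LN, 21.1% of CD8-IFNγRKO LN, 80% of control tumor and 70.8% of CD8-IFNγRKO tumor ones, at median depths of 2220.5, 2328, 4440 and 1903.5 UMIs. The 139 melanoma-marked barcodes of control tumors, with a median of 915 UMIs, had *Cd8a* in 36.7% and *Cd3g* in 53.2%. At 1500 UMIs, leaving out all marked barcodes moved no share of cells without both *Cd8* chains beyond its interval.

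The marker lists of other cell types were then summed. The summed level of the CD4 T cell or Treg list (5 genes) ranged from 17.2 to 68.2 CPM over the 4 libraries, with *Cd4* highest in LN and *Il2ra* in tumors. *Cd4* itself was at 10.7 and 19.3 CPM in control and CD8-IFNγRKO LN and at 4.40 and 5.47 CPM in tumors. *Foxp3* and *Cd40lg* were also lower in tumors, while *Il2ra* and *Zbtb7b* were higher. The sum is thus not a measure of CD4 T cells alone. The γδ T cell list (5 genes) ranged from 2.08 to 28.2 CPM and the NK list (6 genes) from 32.9 to 46.1 CPM, most of it *Eomes*. The B cell list (8 genes), most of it *Ighm* in LN, was at 255 and 268 CPM in LN, above *Cd247*, *Zap70* and *Cd5* there, and at 14.3 and 46.1 CPM in tumors. The myeloid list (14 genes) was at 141, 153, 413 and 298 CPM in control LN, CD8-IFNγRKO LN, control tumors and CD8-IFNγRKO tumors, and the melanoma list (7 genes) stood at 3.06, 2.94, 27.6 and 4.31 CPM. *Cst3* was the highest of the myeloid list, at 245 CPM in control and 207 CPM in CD8-IFNγRKO tumors, followed by *Fcer1g* at 69.2 and 53.9 CPM. *Lyz2* was at 4.14 and 1.65 CPM there, so the myeloid sum is not a measure of myeloid cells alone. Genes at 0 numbered at most 1 of the γδ T cell, 2 of the NK, 3 of the B cell, 4 of the myeloid and 3 of the melanoma list in a library, and none of the CD4 list. The myeloid and melanoma lists were higher in control than in CD8-IFNγRKO tumors, the same direction as the receptor chains, and with the marked barcodes left out the genotype ratios of the 10 genes in tumors kept their signs.

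Spread from cell to cell was read as the variance over the mean, which are equal under counting alone. At low counts this measure lies near that of counting alone even where cells differ, so it does not show that the spread was small. In cells thinned to 1500 UMIs the variance over the mean was lowest for *Zap70* in LN, at 0.99 in both genotypes, and highest for *Cd8a* in control tumors, at 1.43. For *Cd3g* it was 1.36 in control and 1.37 in CD8-IFNγRKO tumors. For *Cd5*, the gene most unlike from clone to clone, it was 1.22 and 1.17. Pearson's r between 2 genes over the thinned cells of a library had medians of 0.02 to 0.03 over 45 pairs and was highest for *Cd3e* and *Cd3g* in control tumors, at 0.18 over 7408 cells. All cells of a library share its pool and depth, and values this low in sparse counts are given as a description only.

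Finally, genes were sought whose levels over the 4 libraries were most like those of *Cd3g* and *Cd8a*, the members with the widest range of log2 CPM (1.18 and 1.10). The measure was the largest absolute difference in centred log2 CPM over the 4 libraries, among 2114 genes with at least 50 CPM in each. For *Cd3g* the nearest were *Glud1* (0.06), *Ms4a4b* (0.09) and *Nptn* (0.10). For *Cd8a* they were *Tiprl* (0.02), *Nptn* (0.02) and *Gmfg* (0.03), with *Gmfg* at 251, 243, 512 and 370 CPM in control LN, CD8-IFNγRKO LN, control tumors and CD8-IFNγRKO tumors. The likeness rests on 4 libraries, and no other gene of the 10 was among the 3 nearest to either.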

How the data were processed

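The 4 gene expression libraries and 2 TCR libraries were used as deposited. The counts are whole numbers of UMIs per gene and barcode that the authors made with Cell Ranger against mm10, and nothing was normalized before deposit. Barcodes were kept at 200 to 6000 genes and at most 3% mitochondrial UMIs. This left 11075 to 12861 barcodes per library. Doublets were kept, with no caller run. UMIs of a library were pooled, scaled to CPM and compared as log2 ratios with no pseudocount. The 95% intervals are exact (Clopper-Pearson for shares, from the Poisson distribution for levels, and from the binomial split of both counts for ratios) and cover counting error only. A ratio of 1.5 in either direction counted as higher or lower, read against all genes that reached 50 CPM in 1 or both libraries. Shares of cells were read after thinning each cell to 1500 UMIs, which left out shallower cells (2425 in control LN, 253 in CD8-IFNγRKO LN, 3667 in control tumors and 1059 in CD8-IFNγRKO tumors). A barcode was marked for B, myeloid or melanoma genes where at least 3 genes of the list had a UMI and the list held at least 0.5% of its UMIs. All 10 genes were named, with *Ifngr1*, the 2 highest and 2 lowest of the pathway list per comparison and the 3 nearest profiles of the widest-ranging genes. A result that this rule would name in the pathway list is not reported here. The members and lists were chosen with earlier results of these data known. Alternatives changed the barcode filters, scaling, pseudocount (1 and 10 CPM), weighting, thinning (1000 and 3000 UMIs) and clone limit. Scripts ran in Python 3.11.15 with numpy 2.4.6, scipy 1.17.1, pandas 2.3.3 and matplotlib 3.10.9 and were tested on simulated data.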

Additional observations from a re-analysis of the deposited data

Results flagged for a closer look

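For 5 genes the genotype ratio (log2, CD8-IFNγRKO over control) was below 0 in tumors and above 0 in LN with counting intervals that left out 0 in both tissues. The values in tumors and LN were -0.31 and 0.13 for *Cd8b1*, -0.42 and 0.079 for *Cd3e*, -0.41 and 0.091 for *Cd3g*, -0.66 and 0.046 for *Cd247*, and -0.17 and 0.10 for *Lck*. *Cd3d*, *Zap70* and *Cd5* had the same signs, with LN intervals that held 0. By the same rule, for 2 genes the tissue ratio (log2, tumor over LN) was above 0 in control and below 0 in CD8-IFNγRKO mice, at 0.12 and -0.58 for *Cd247* and at 0.30 and -0.10 for *Cd5*. Each group was 1 library of pooled mice, so these differences were not tested. No share of all genes by this rule stands beside the counts of 5 and 2, so they do not set the 10 genes apart. The median LN ratio of all genes was 0.03, and *Cd247* was at 0.016 in LN when ratios were divided by the median ratio. The control tissue ratio of *Cd247* turned to -0.15 when TCR, ribosomal, mitochondrial and heat shock genes left the library size, and the CD8-IFNγRKO tissue ratio of *Cd5* turned to 0.03 with the mean of CPM per barcode.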

How the results depend on the processing

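Of 1060 alternative values, 749 stayed within the counting interval of the reported value (or, for a count of genes, within 1.5 times), 311 did not and 0 reversed a value past the ratio of 1.5. In tumors the count of the 10 genes lower in CD8-IFNγRKO went from 1 to 0 with the mean of CPM per barcode. For tumor over LN in control mice, 5 genes higher became 2 when TCR, ribosomal, mitochondrial and heat shock genes left the library size and 3 when ratios were divided by the median ratio. In CD8-IFNγRKO mice, 3 higher and 1 lower became 0 and 4 under either of these scalings, and 2 genes were lower with shared barcodes left out. These scalings shift all ratios of a comparison by one amount. The share of cells with neither *Cd8a* nor *Cd8b1* was 1.15% in control LN, 1.03% in CD8-IFNγRKO LN, 0.963% in control tumors and 1.81% in CD8-IFNγRKO tumors at 3000 UMIs, and 5.44%, 1.23%, 5.16% and 3.01% with no thinning. Depth therefore limits every share of cells. The tumor and LN libraries of a genotype were taken to come from the same pool of 3 mice. No paired analysis was possible because each group had 1 library. Settings within clone classes, depth bins and gates were chosen after seeing the data, and no genotype ratio over all genes stands beside those of the 10 genes within them.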
